A study of Mus musculus with 9 samples.

Results

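The genes described are 10 that move phosphate across the cell membrane or make and break the inositol pyrophosphates that control its export: *Xpr1*, *Slc20a1*, *Slc20a2*, *Ippk*, *Ip6k1*, *Ip6k2*, *Ppip5k1*, *Ppip5k2*, *Minpp1* and *Nudt3*. They were chosen by name, as the core of the pathway, and all 10 had a row among the 13708 genes of the deposited table, matched by Ensembl identifier. Bulk RNA-seq, which measures the RNA of all sorted cells together, had been run on fetal liver (FL) macrophages of E15.5 embryos, with 5 Mrc1Cre Xpr1fl/fl and 4 Xpr1fl/fl samples. The comparison asks what the loss of *Xpr1* from these macrophages does to their transcripts. Every embryo, controls included, carried *Xpr1* alleles whose exon 2 lies between *loxP* sites, and the genotypes differ in the Mrc1Cre allele, in which an improved Cre recombinase and a yellow fluorescent protein are made from the *Mrc1* locus. *Mrc1* (CD206) is also made by liver sinusoidal endothelial cells, so Cre activity is not limited to macrophages. The cells were sorted as CD45+ F4/80hi CD11blow and included Tim4hi and Tim4lo cells. Sources used here do not say whether each sample was 1 embryo or a pool, so the p-values measure the spread between these samples.

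Inorganic phosphate enters mammalian cells mainly through the sodium-coupled carriers PiT-1 (*Slc20a1*) and PiT-2 (*Slc20a2*) and leaves them through XPR1, the known phosphate exporter of animal cells. XPR1 has a cytosolic SPX domain that binds inositol pyrophosphates, and export rises when these are bound. They are made stepwise: IPPK makes inositol hexakisphosphate, the IP6 kinases add a pyrophosphate group, and the PPIP5 kinases add another, while MINPP1 and NUDT3 act in the opposite direction. Macrophages that clear nuclei and dying cells take up large amounts of phosphate with the nucleic acids.

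The exon that Cre removes is shown first, since the genotype rests on it. *Xpr1* (ENSMUSG00000026469) has 7 annotated transcripts, of which 5 hold exon 2, and all 3 protein-coding ones are among these. Exon 2 of the transcript *Xpr1*-201 is 52 bp long and lies 32773 bp after the transcript start. It is shown here as DNA in the sense of the transcript (the minus strand of GRCm39), chr1:155260337-155260428, with the exon in capitals and 20 bases of intron on each side in lower case.
Xpr1 exon 2: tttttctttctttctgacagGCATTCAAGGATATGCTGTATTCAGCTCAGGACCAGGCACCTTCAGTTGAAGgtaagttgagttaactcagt
The lines that follow give the coding sequence around it with and without the exon. In the first, exon 2 is in capitals between the end of exon 1 and the start of exon 3. In the other, exon 1 runs straight into exon 3, and capitals mark the first 3 bases of exon 3, which are then read as 1 codon.
Exons 1, 2 and 3: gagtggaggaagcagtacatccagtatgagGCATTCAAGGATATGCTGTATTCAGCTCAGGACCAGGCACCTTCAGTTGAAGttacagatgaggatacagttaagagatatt
Exons 1 and 3: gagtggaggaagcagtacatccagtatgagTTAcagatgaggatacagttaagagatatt
The length of exon 2 leaves a remainder of 1 when divided by 3, so its loss shifts the reading frame. The full frame has 695 codons. Without exon 2, the 23 codons of exon 1 are followed by 110 shifted codons and then a stop codon in exon 5. These are readings of the reference sequence (GENCODE annotation of GRCm39), and no junction reads were analysed here. Exon 2 makes up 0.681% of the length of *Xpr1*-201. Whether its loss changes the amount of the remaining transcript was not tested.

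**Figure D1:**
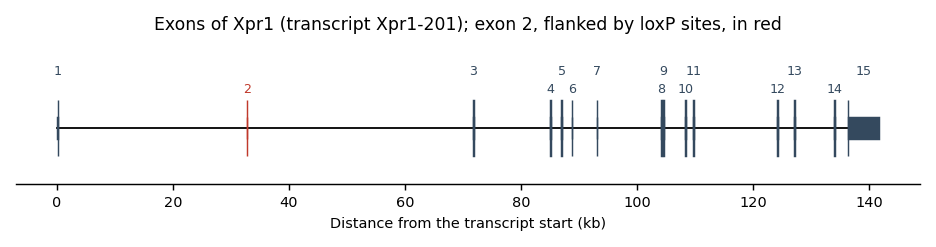
Exons of *Xpr1* (transcript *Xpr1*-201) by distance from the transcript start in kb, with coding parts as tall boxes and untranslated parts as low boxes. Exon 2, in red, is 52 bp of a transcript of 7638 bp and lies 32773 bp from its start.

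The exporter gene itself was lower in each Mrc1Cre Xpr1fl/fl sample. Relative to the mean of the controls (1982 ± 204.7 normalized counts, SD, n = 4), Mrc1Cre Xpr1fl/fl samples 1 to 5 had 59.2%, 59.9%, 54.2%, 64.9% and 55% of the *Xpr1* level, and control samples 1 to 4 had 89.9%, 93.8%, 113% and 103%. The highest Mrc1Cre Xpr1fl/fl sample, with 1285.3 normalized counts, lay below the lowest control, with 1780.9, so the genotypes did not overlap, and on average 58.6% of the control level remained. On the scale of log2(normalized count + 1) the difference was −0.77 (95% confidence interval −0.94 to −0.59, adjusted p = 4.13e-05, limma with Benjamini-Hochberg adjustment over all 13594 genes tested). In bulk samples, fewer cells that express a gene and less RNA of it per cell cannot be told apart, and the deposited values do not separate transcripts with exon 2 from those without it.

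All 10 genes passed the filter on low values (10 or more normalized counts in 4 or more samples). *Ippk*, *Ppip5k1* and *Ppip5k2* were higher and *Xpr1*, *Slc20a2* and *Minpp1* lower in Mrc1Cre Xpr1fl/fl samples at an adjusted p under 0.05 (limma), which is 3 genes in each direction. Among all genes tested 43.1% passed the same threshold (21.5% of all genes tested as higher and 21.6% as lower), and the share of 6 of 10 has to be read against that. The median difference of the 10 genes was −0.087 on the log2 scale, and that of all genes tested was 0.005. The genotypes did not overlap for 5 of the genes (*Xpr1*, *Slc20a2*, *Ip6k1* and *Minpp1* lower, *Ippk* higher), against 34.1% of all genes tested. Among all genes passing the threshold 49.9% were higher, but 35% after scaling each sample to its 75th percentile and 53.8% after quantile normalization, and these moved the median of all genes by less than 0.1.

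The names of the samples in the table begin with 1 of 3 dates, and what these mark is not stated in the sources used here. Mrc1Cre Xpr1fl/fl sample 5 and controls 1 to 3 shared the earliest date, control 4 had the middle one, and Mrc1Cre Xpr1fl/fl samples 1 to 4 had the latest. For those 4 samples the date and the genotype cannot be told apart. With the date as a term the comparison comes down to sample 5 against 3 controls. The spread then comes from the other samples of each date, controls 1 to 3 and Mrc1Cre Xpr1fl/fl samples 1 to 4, and sample 5, alone in its arm, is assumed to vary like them, so every p-value of this fit rests on that assumption and on 1 Mrc1Cre Xpr1fl/fl sample. Among all genes 8.78% passed in it, and of the 10 genes *Xpr1* did, with a difference of −0.84 (adjusted p = 0.00799, limma). The other 9 had adjusted p-values of 0.267 or more in that fit, and none of them had an unadjusted p under 0.05. Mrc1Cre Xpr1fl/fl sample 5 lay below its 3 date-matched controls for *Xpr1*, *Slc20a2*, *Ip6k1* and *Minpp1*, above them for *Slc20a1* and *Ippk*, and within their range for *Ip6k2*, *Ppip5k1*, *Ppip5k2* and *Nudt3*.

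**Figure D2:**
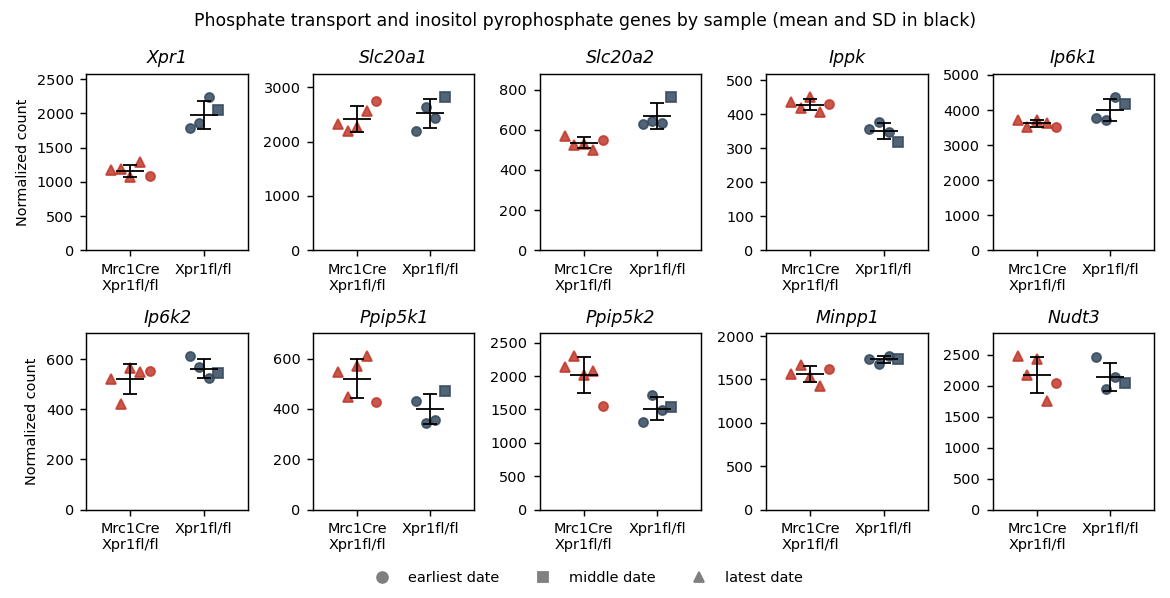
Normalized counts of the 10 genes in each sample (1 point per sample, Mrc1Cre Xpr1fl/fl in red and Xpr1fl/fl in dark blue, shape of the point for the date in the sample's name), with the mean and SD in black. Points of the genotypes do not overlap for *Xpr1*, *Slc20a2*, *Ip6k1*, *Minpp1* and *Ippk*, and the Mrc1Cre Xpr1fl/fl sample of the earliest date lies among the controls for *Ppip5k1* and *Ppip5k2*.

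Of the importer genes, *Slc20a2* was lower and *Slc20a1* was not called, and the difference between their changes was not tested. *Slc20a2* (ENSMUSG00000037656, chromosome 8, 22966111 to 23059686, plus strand) encodes PiT-2. Its normalized counts were 570, 526.6, 529.4, 497.5 and 549.7 in Mrc1Cre Xpr1fl/fl samples 1 to 5 and 627.2, 642.3, 633.4 and 763.5 in controls 1 to 4. Each Mrc1Cre Xpr1fl/fl sample was below each control, and control 4 stood above the rest. The mean in Mrc1Cre Xpr1fl/fl samples was 80.2% of that in controls, and the difference was −0.31 on the log2 scale (standard error 0.08, adjusted p = 0.00763, limma). It remained past the threshold when any sample was left out (−0.34 to −0.25), but not with the date as a term (−0.21, adjusted p = 0.305).

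*Slc20a1* (ENSMUSG00000027397, chromosome 2, 129040256 to 129053536, plus strand) encodes PiT-1. The Mrc1Cre Xpr1fl/fl samples had 2320.7, 2195, 2259.2, 2571.8 and 2754.1 normalized counts, and the controls had 2202.2, 2636.3, 2427.3 and 2820.1. These ranges were nearly the same, with a high and a low sample in each genotype. The difference was −0.06 on the log2 scale with a 95% confidence interval of −0.25 to 0.13 (adjusted p = 0.613, limma). With the date as a term it had the opposite sign (0.19, adjusted p = 0.345).

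Import and export can also be set side by side as ratios of counts. The counts are not divided by length here. A ratio can thus be compared between genotypes, but it does not give the relative level of its genes. The ratio of the normalized counts of *Slc20a1* to those of *Xpr1* was 2.091 ± 0.259 in Mrc1Cre Xpr1fl/fl samples and 1.279 ± 0.151 in controls (SD, n = 5 and 4), and that of *Slc20a2* to *Xpr1* was 0.463 ± 0.048 and 0.338 ± 0.039. These ratios rest on the *Xpr1* counts, whose difference is the one the genotype targets, and were not tested. They ranged from 1.849 to 2.525 against 1.084 to 1.418 for *Slc20a1* and from 0.387 to 0.504 against 0.283 to 0.373 for *Slc20a2*, without overlap in either case.

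Of the 5 kinase genes, 3 were higher and none of the others was called, where 21.5% of all genes tested were higher and 43.1% were called in either direction. *Ippk* (ENSMUSG00000021385, chromosome 13, 49574669 to 49618055, plus strand) encodes the kinase that makes inositol hexakisphosphate. Mrc1Cre Xpr1fl/fl samples 1 to 5 had 436.4, 419.3, 450.9, 406.6 and 428.9 normalized counts of it, and controls 1 to 4 had 355.7, 376.1, 348.4 and 318.9. Each Mrc1Cre Xpr1fl/fl sample, the date-matched sample 5 included, lay above each control. The difference of 0.29 on the log2 scale (standard error 0.08, adjusted p = 0.00973, limma) ranged from 0.25 to 0.33 over the fits that omitted 1 sample each and passed the threshold each time. It was 0.25 with the date as a term, where it did not pass (adjusted p = 0.267).

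*Ppip5k2* and *Ppip5k1* encode the kinases of the last step, which also carry a phosphatase domain. *Ppip5k2* (ENSMUSG00000040648, chromosome 1, 97630717 to 97698401, minus strand) had 2140.7, 2293.8, 2012.9, 2069.7 and 1559.3 normalized counts in Mrc1Cre Xpr1fl/fl samples and 1309.7, 1720.4, 1485.2 and 1533.4 in controls. The first 4 Mrc1Cre Xpr1fl/fl samples were above all controls, while sample 5 lay below control 2 and only slightly above controls 3 and 4. The difference of 0.41 (standard error 0.11, adjusted p = 0.0109, limma) held in each fit that omitted 1 sample but was 0.06 with the date as a term (95% confidence interval −0.25 to 0.37, adjusted p = 0.818).

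*Ppip5k1* (ENSMUSG00000033526, chromosome 2, 121141005 to 121189004, minus strand) had 546.4, 448.8, 571, 608.7 and 429.7 normalized counts in Mrc1Cre Xpr1fl/fl samples and 432.9, 343.8, 356.7 and 469.6 in controls. Samples 2 and 5 of the Mrc1Cre Xpr1fl/fl genotype lay within the range of the controls. The difference was 0.38 on the log2 scale (standard error 0.13, adjusted p = 0.036, limma). The adjusted p no longer passed without Mrc1Cre Xpr1fl/fl sample 1, 3 or 4 (adjusted p = 0.0733, 0.0795 and 0.0819, limma) or without control 2 or 3 (0.101 and 0.1), after scaling to the 75th percentile (0.0812), and without a trend in the variance, which leaves the difference as it is (0.056). With the date as a term the difference itself was smaller, at 0.19 (95% confidence interval −0.23 to 0.62, adjusted p = 0.569). Its adjusted p ranged from 0.00506 to 0.798 over the alternatives run.

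The IP6 kinases make the first inositol pyrophosphate. *Ip6k1* (ENSMUSG00000032594, chromosome 9, 107879258 to 107925989, plus strand) had 3715.3, 3514.2, 3707.5, 3643.1 and 3528.5 normalized counts in Mrc1Cre Xpr1fl/fl samples and 3767.6, 3725.6, 4370.6 and 4168.8 in controls. The genotypes did not overlap, but by a margin far smaller than the spread of the controls. The difference of −0.14 (95% confidence interval −0.27 to −0.02) had an adjusted p of 0.0588 (limma). It passed the threshold after scaling to the 75th percentile (adjusted p = 0.00562), quantile normalization (0.00287), with array weights (0.0436), and without control 1 (0.0388) or 2 (0.0332), and had an adjusted p of up to 0.974 elsewhere. Of the 31-base stretches of its annotated transcripts, 12.46% also occur in other genes, most of them in *Gm20662*, listed at 7.2 to 28.6 normalized counts.

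*Ip6k2* (ENSMUSG00000032599, chromosome 9, 108648036 to 108684638, plus strand) had 420.6 to 564.3 normalized counts in Mrc1Cre Xpr1fl/fl samples and 525.1 to 610.8 in controls. The genotypes overlapped, and the lowest value of all was that of Mrc1Cre Xpr1fl/fl sample 2. The difference was −0.12 (95% confidence interval −0.33 to 0.09, adjusted p = 0.355, limma), and −0.04 without that sample. *Ip6k1* and *Ip6k2* shared 0 stretches of 31 bases, and the same held for *Ppip5k1* with *Ppip5k2* and for *Slc20a1* with *Slc20a2*, so no stretch of this length was ambiguous between paralogs. *Ip6k3*, the remaining IP6 kinase gene, had no row in the table. The ratio of *Ppip5k2* to *Ip6k1* counts, again not divided by length, was 0.576, 0.653, 0.543, 0.568 and 0.442 in Mrc1Cre Xpr1fl/fl samples 1 to 5. Controls 1 to 4 had 0.348, 0.462, 0.34 and 0.368.

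Differences in the enzymes that remove phosphate groups were small. *Minpp1* (ENSMUSG00000024896, chromosome 19, 32463126 to 32517563, plus strand) encodes a phosphatase that acts on inositol hexakisphosphate. It had 1561.3, 1664.8, 1531.6, 1430.3 and 1615.3 normalized counts in Mrc1Cre Xpr1fl/fl samples and 1740, 1675.3, 1765.2 and 1741.2 in controls. All Mrc1Cre Xpr1fl/fl samples were below all controls, with sample 2 close to control 2, and the mean was 90.2% of that of the controls. The difference of −0.15 (standard error 0.05, adjusted p = 0.0442, limma) lost its call when Mrc1Cre Xpr1fl/fl sample 1, 3 or 4 was left out (adjusted p = 0.0753, 0.0862 and 0.092), when control 1, 2, 3 or 4 was left out (0.0761, 0.0531, 0.105 and 0.0865), without a trend in the variance (0.0592), and in the date-adjusted fit (0.587). Of the 31-base stretches of *Minpp1*, 24.86% also occur elsewhere in the annotation, most often in *Gm54639*, which had no row in the table, so how reads were shared with it is unknown.

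*Nudt3* (ENSMUSG00000024213, chromosome 17, 27798356 to 27842805, minus strand) encodes a hydrolase of inositol pyrophosphates. It ranged from 1747.7 to 2473.2 normalized counts in Mrc1Cre Xpr1fl/fl samples and from 1941.2 to 2468.1 in controls. The highest samples of each genotype were nearly level, and the ranges overlapped throughout. The difference was 0.01 (95% confidence interval −0.21 to 0.24, adjusted p = 0.928, limma) and had the opposite sign after scaling to the 75th percentile or quantile normalization (−0.06 in each). *Gm49804*, which holds 7.59% of the 31-base stretches of *Nudt3*, was listed at 0 to 42.2 normalized counts.

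**Figure D3:**
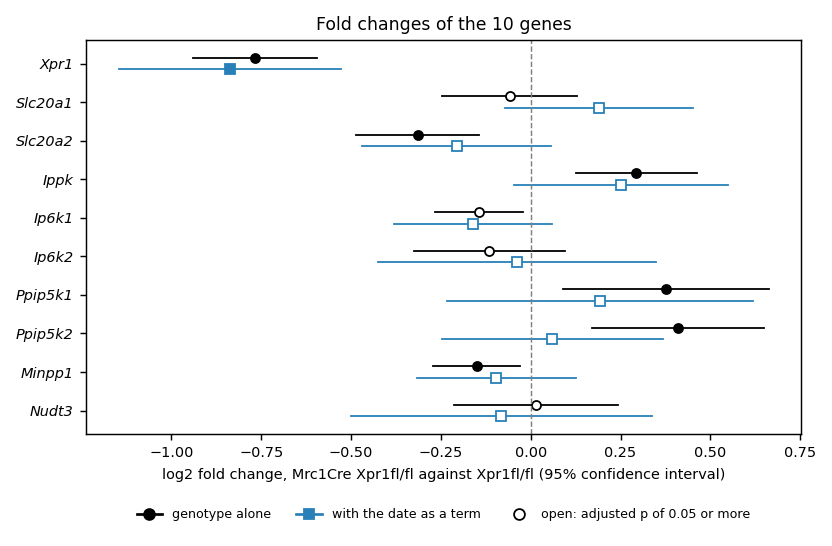
Differences of the 10 genes on the log2 scale (Mrc1Cre Xpr1fl/fl against Xpr1fl/fl) with 95% confidence intervals, from the genotype alone (black circles) and with the date as a term (blue squares), where filled symbols have an adjusted p under 0.05 in limma. *Xpr1* is filled in both fits, and the intervals of the other 9 genes cross 0 when the date is a term.

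To compare the genes with each other, normalized counts were divided by the length of annotated exons in kb. Among controls the order was *Ip6k1* (500 ± 39.1 normalized counts per kb, SD, n = 4), *Minpp1* (485.0 ± 10.8), *Nudt3* (434.2 ± 46.3) and *Slc20a1* (407.3 ± 43.1), and the ranges of neighbours among these 4 overlapped. A gap separated them from *Xpr1* (110.5 ± 11.4), which did not overlap with *Ip6k2* (86.31 ± 5.61) next to it. *Ip6k2* overlapped with *Ppip5k2* (78.09 ± 8.72), and this overlapped narrowly with *Slc20a2* (59.14 ± 5.76), whose highest sample reached 67.74. The last places were held by *Ippk* (44.65 ± 3.02) and *Ppip5k1* (28.52 ± 4.30), which overlapped neither with each other nor with *Slc20a2*. Transcripts of PiT-1 were thus above those of PiT-2 per length, and those of *Ip6k1* above those of *Ip6k2*, in each sample.

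In Mrc1Cre Xpr1fl/fl samples, *Xpr1* had 64.78 ± 4.73 normalized counts per kb (SD, n = 5) and stood at place 7 of 10 in place of 5, below *Ppip5k2* (104.1 ± 14.2) and *Ip6k2* (79.99 ± 9). *Ippk* (54.69 ± 2.14) stood above *Slc20a2* (47.43 ± 2.41) there, in the reverse of their order in controls. This reversal holds only for the length of annotated exons. By the mean length of protein-coding transcripts (4242.7 bp for *Ippk*, 3745.7 bp for *Slc20a2*), *Slc20a2* stays above *Ippk*. Its mean count in these samples was also the higher (534.62 against 428.41). The level depends on the length used. With the mean length of the protein-coding transcripts, *Xpr1* had 333 normalized counts per kb in controls and kept place 5, while *Minpp1* moved from 2 to 4 and *Ippk* and *Ppip5k1* exchanged the last places.

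**Figure D4:**
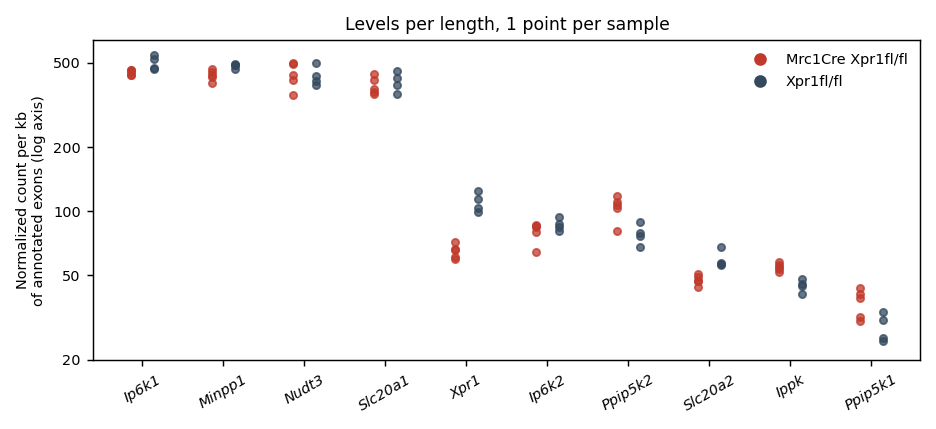
Normalized counts per kb of annotated exons in each sample (log axis), Mrc1Cre Xpr1fl/fl in red and Xpr1fl/fl in dark blue, with the genes in the order of the control means. *Ip6k1*, *Minpp1*, *Nudt3* and *Slc20a1* lie at 353.6 or more in all samples, and *Xpr1* passes from 110.5 on average in controls to 64.78.

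Beyond the 10 genes, lists of 60 genes of phosphate and inositol phosphate handling held 42 that could be tested. Of these, 10 were higher, 12 lower and 20 not called at an adjusted p under 0.05 (limma), and the genotypes did not overlap for 17. Among all genes tested these shares were 43.1% called and 34.1% without overlap. The median difference was −0.058. With the date as a term, where 1 Mrc1Cre Xpr1fl/fl sample was set against 3 controls, *Ipmk*, *Galnt3* and *Fgfr1* passed. The intestinal and renal phosphate carriers *Slc34a1*, *Slc34a2* and *Slc34a3*, the hormone gene *Fgf23* and its coreceptor *Kl* had no row in the table.

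Among other enzymes of inositol phosphates, 3 of 12 were higher, 2 lower and 7 not called, a share close to the 43.1% of all genes called, so the genes named here are values and not a pattern of the list. *Ipmk*, the multikinase that supplies the precursors of inositol hexakisphosphate, had 1998.2, 2176.9, 2142.7, 2086.8 and 1817.8 normalized counts in Mrc1Cre Xpr1fl/fl samples and 2262.4, 2338.6, 2427.4 and 2440.4 in controls. Without overlap between the genotypes, its difference was −0.21 on the log2 scale (adjusted p = 0.0144, limma) and −0.37 with the date as a term (adjusted p = 0.031). *Nudt4*, a hydrolase of the same family as *Nudt3*, was also lower (−0.27, adjusted p = 0.00154). The higher genes were *Itpkb*, a kinase of inositol trisphosphate (0.20, adjusted p = 0.0191), *Inpp1*, an inositol polyphosphate phosphatase (0.61, adjusted p = 0.0146), and *Bpnt2*, a phosphatase of the Golgi (0.26, adjusted p = 0.0158). After scaling to the 75th percentile *Itpkb* (0.12, adjusted p = 0.111, limma) and *Bpnt2* (0.18, adjusted p = 0.0566) were no longer called, nor was *Bpnt2* after quantile normalization (0.18, adjusted p = 0.0592). With the date as a term *Bpnt2* stood at 0.04 (adjusted p = 0.848) and *Itpkb* at 0.10 (adjusted p = 0.587). *Isyna1*, which makes inositol from glucose phosphate, was not called (0.10, adjusted p = 0.13). *Slc5a3*, the sodium-coupled inositol importer, was lower (−0.35, adjusted p = 0.0413), but lost its call without Mrc1Cre Xpr1fl/fl sample 1, 2 or 5 or control 2, 3 or 4 (adjusted p from 0.0665 to 0.116, limma), after quantile normalization (0.0931) and without a trend in the variance (0.0622). In the date-adjusted fit its difference was larger, at −0.60 (adjusted p = 0.0518). The other inositol carrier gene tested was not called.

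Of 8 other phosphate carriers and their partners, 3 were higher, 1 lower and 4 not called, close to the 43.1% of all genes called. *Kidins220*, a scaffold protein that forms a complex with XPR1, had 5432.4, 4949.2, 5447.3, 5849.4 and 4322 normalized counts in Mrc1Cre Xpr1fl/fl samples and 3741.3, 3890, 4535.3 and 4752.3 in controls, with sample 5 inside the range of the controls. It was higher by 0.30 (adjusted p = 0.0265, limma), without a call when Mrc1Cre Xpr1fl/fl sample 1, 3 or 4 or control 1 or 2 was left out (adjusted p from 0.0575 to 0.0805), after scaling to the 75th percentile (0.22, adjusted p = 0.0672) or quantile normalization (0.18, adjusted p = 0.117) or without a trend in the variance (0.0556), and at 0.10 with the date as a term (adjusted p = 0.654). The mitochondrial carriers that exchange ATP-magnesium for phosphate went in different directions, with *Slc25a25* (0.39, adjusted p = 0.00117) and *Slc25a24* (0.24, adjusted p = 0.0158) higher and *Slc25a23* (−0.59, adjusted p = 0.0087) lower. *Slc25a24* was no longer called after scaling to the 75th percentile (0.16, adjusted p = 0.0809, limma), and *Slc25a23* after quantile normalization (−0.31, adjusted p = 0.107). *Slc25a3*, which brings phosphate into mitochondria for ATP synthesis, had a mean of 11339 normalized counts in Mrc1Cre Xpr1fl/fl samples and 11643 in controls and was not called (−0.04, adjusted p = 0.57).

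Of 11 genes that release phosphate or pyrophosphate, 2 were higher, 5 lower and 4 not called, where 43.1% of all genes were called and 21.6% were lower. *Ank*, named *Ankh* in other annotations, acts in the release of ATP and pyrophosphate from cells. It had 141.4 to 217 normalized counts in Mrc1Cre Xpr1fl/fl samples and 328.6 to 501.2 in controls, a difference of −1.17 (adjusted p = 0.000175, limma) that stood at −0.94 with the date as a term (adjusted p = 0.0524). *Enpp1*, which makes pyrophosphate from ATP outside the cell, was higher (0.31, adjusted p = 0.0063), with a difference of 0.09 in the date-adjusted fit (adjusted p = 0.588). The cytosolic pyrophosphatase gene *Ppa1* was higher (0.37, adjusted p = 0.00676), and its mitochondrial relative *Ppa2* was lower (−0.23, adjusted p = 0.03), a call lost without Mrc1Cre Xpr1fl/fl sample 1, 3 or 4 or control 2 or 4 (adjusted p from 0.0632 to 0.071) and after quantile normalization (0.116), and in the date-adjusted fit *Ppa2* stood at −0.14 (adjusted p = 0.585). *Lhpp*, a pyrophosphate phosphatase, was lower (−0.43, adjusted p = 0.00277). *Phospho1*, a phosphatase of phosphocholine, had 72.3, 46.1, 87.5, 72.9 and 166.9 normalized counts in Mrc1Cre Xpr1fl/fl samples against 237.2 to 424.6 in controls, a difference of −2.03 (adjusted p = 0.000431) that was −0.89 with the date as a term. Its sign turned when the mean log2 value of erythroid markers was a covariate (0.37). *Alpl*, the alkaline phosphatase gene, was lower from a low level (14.38 ± 6.71 against 42.06 ± 13.2 normalized counts, SD, n = 5 and 4, difference −1.54, adjusted p = 0.00487).

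Genes through which hormones set phosphate in the body were few in these cells. *Galnt3*, which glycosylates the hormone FGF23, had 2178.2, 2213.8, 2412.8, 2636 and 2244.9 normalized counts in Mrc1Cre Xpr1fl/fl samples and 1376.8, 1178, 1192.1 and 1218.4 in controls. The genotypes were far apart, and *Galnt3* was higher by 0.91 on the log2 scale (adjusted p = 1e-05, limma) and by 0.85 with the date as a term (adjusted p = 0.00565). *Fgfr1*, a receptor of FGF23, had 5.5 to 18.4 normalized counts against 84.2 to 148.4 in controls and was lower (−3.02, adjusted p = 7.16e-05), and the date-adjusted difference was −2.57 (adjusted p = 0.0323). *Pth1r*, the receptor of parathyroid hormone, was lower from a mean of only 22.99 normalized counts (−1.37, adjusted p = 0.00556), and 1 other gene of this list was not called. Mutations of *XPR1*, *SLC20A2*, *PDGFRB* and *CMPK2* cause familial brain calcification in people. Of the 7 tested genes of that group, *Xpr1*, *Slc20a2* and *Pdgfrb* (−0.52, adjusted p = 0.0158, limma) were lower, *Cmpk2*, a mitochondrial nucleotide kinase, was higher (0.98, adjusted p = 0.000598), and 3 were not called, where 43.1% of all genes were called. *Pdgfrb* was no longer called after quantile normalization, where its difference was −0.18 (adjusted p = 0.339, limma).

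**Figure D5:**
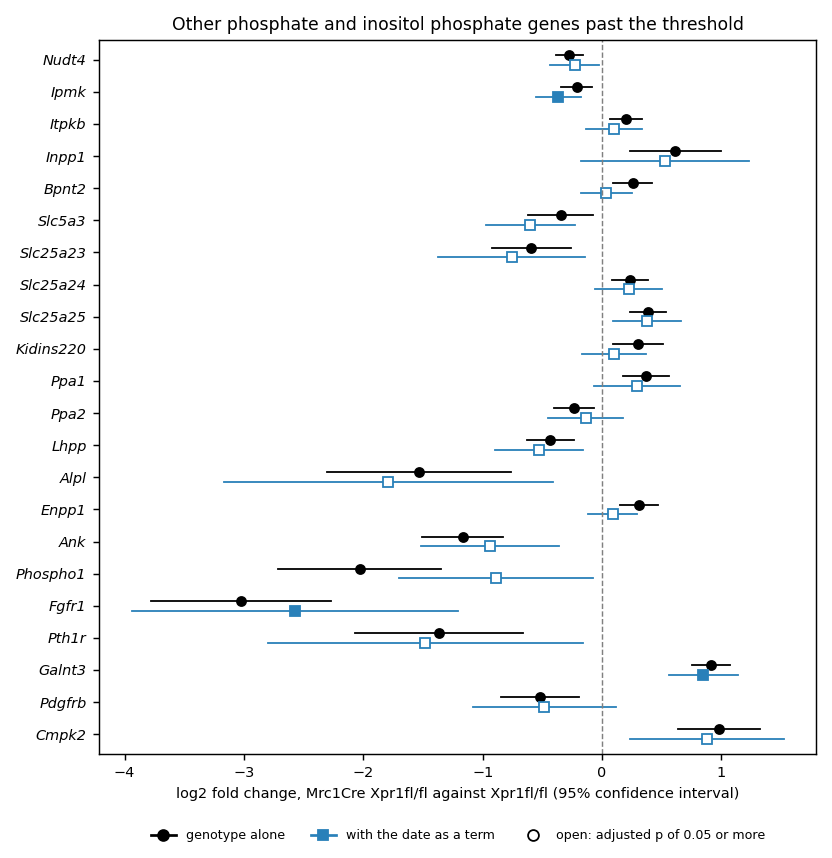
Differences on the log2 scale with 95% confidence intervals of the 22 other phosphate and inositol phosphate genes that passed the threshold in limma, from the genotype alone (black circles) and with the date as a term (blue squares, filled where the adjusted p is under 0.05). *Ipmk*, *Galnt3* and *Fgfr1* are filled in both, and *Fgfr1* has the lowest value.

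Markers of erythroid cells, hepatocytes and endothelial cells were mostly lower in Mrc1Cre Xpr1fl/fl samples beside these genes. All 15 erythroid markers were lower (limma), and their summed normalized counts were 135944, 105890, 166714, 155613 and 318883 in Mrc1Cre Xpr1fl/fl samples 1 to 5 and 569158, 418217, 660872 and 646281 in controls, with *Hba-a1*, nearly identical to *Hba-a2*, the most abundant. Sample 5 was the Mrc1Cre Xpr1fl/fl sample nearest to the controls. The median difference of the erythroid list was −1.81 on the log2 scale, and −0.97 with the date as a term. With the mean log2 value of this list as a covariate, which followed the genotype (r2 = 0.853), *Xpr1* stood at −0.77 but with an adjusted p of 0.2 (limma), *Ppip5k2* turned to −0.26, and 22 of all genes tested and 0 of the 10 passed. Hepatocyte markers (8 of 8 lower, *Trf* the most abundant) had a summed level of 0.533 times that of controls, and endothelial markers (8 of 9 lower, *Stab2*) of 0.618. These sums rest largely on 1 gene each. In controls *Trf* had 35180 of 73947 normalized counts on average, and *Stab2* 8125 of 11885. The median difference of hepatocyte markers was −1.1, and −0.57 with the date as a term. For endothelial markers these medians were −1.34 and −0.996. For neutrophils 3 of 7 markers and for megakaryocytes 2 of 5 were lower, and 0 of either list were higher. Among all genes tested 21.6% were lower and 43.1% were called in either direction. The neutrophil sum, led by *S100a9* (not called, adjusted p = 0.169, limma), was 4807 to 17383 in Mrc1Cre Xpr1fl/fl samples and 8699 to 51740 in controls, with control 4 inside the Mrc1Cre Xpr1fl/fl range. The 3 lower neutrophil markers, *Elane* (−2.22, adjusted p = 2.82e-05), *Prtn3* (−2.10, adjusted p = 1.26e-05) and *Mpo* (−1.87, adjusted p = 2.4e-05, limma), which are made by granulocyte precursors, did not overlap between the genotypes. In the date-adjusted fit their differences were −2.35, −2.18 and −2.26. The median of all 7 neutrophil markers was −1.42, and −0.77 in that fit. The megakaryocyte sum, led by *Pf4*, stood at 0.382 times the controls, with *Gp1bb* listed at 0 in Mrc1Cre Xpr1fl/fl sample 4 as the only marker at 0 in any sample. Monocyte markers (3 of 7 higher and 2 lower, *Cx3cr1*) stood at 1.435 times the controls. The megakaryocyte median was −1.43, and −0.26 with the date as a term. For monocyte markers these medians were 0.03 and −0.11. The part of these cells in the differences of the phosphate genes was not tested.

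Presence of markers could not check the labelled cell type, since every marker of every list except *Gp1bb* was above 0 in each sample. All 10 macrophage markers were thus present in every sample. *Csf1r* was the most abundant, with 84995 ± 6385 normalized counts in Mrc1Cre Xpr1fl/fl samples and 77102 ± 5259 in controls (SD, n = 5 and 4). The summed level of the macrophage list was 289519 and 312298 normalized counts on average, a ratio of 0.927. The erythroid list summed to 176609 and 573632 on average, so it exceeded the macrophage list in all 4 controls and in Mrc1Cre Xpr1fl/fl sample 5 (318883 against 279334), but not in Mrc1Cre Xpr1fl/fl samples 1 to 4. *Hba-a1* alone had 157710 ± 30384 normalized counts in controls (SD, n = 4). *Csf1r* and *Adgre1*, which encodes F4/80, were not called (adjusted p = 0.155 and 0.816, limma), while *Timd4*, *C1qa* and *C1qc* were lower and *Ptprc*, which encodes CD45, was higher. Differences of *Timd4*, *C1qa*, *C1qc* and *Ptprc* were −0.85, −0.86, −0.41 and 0.85. They were −0.88, −0.77, −0.32 and 0.56 with the date as a term.

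The genes whose log2 values followed those of *Xpr1* most closely over the 9 samples, among 11399 genes with at least 50 normalized counts on average, were *Trpv4* (Pearson r = 0.99, difference −1.30 on the log2 scale), *Btbd2* (0.986, −0.36), *Atg14* (0.982, −0.42), *Kit* (0.981, −1.60) and *Mapre3* (0.981, −1.42). The points share their libraries and fall into the groups of the genotypes, so that these values describe the difference between the groups as much as the likeness within them.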

How the data were processed

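The authors deposited 1 signal value per gene and sample, obtained by dividing gene counts by DESeq2 normalization factors, after FastQC, salmon on a GRCm39 index and tximport, whose versions are not given in the sources used here. They are called normalized counts. Sample totals (26942921 to 28309443) are set by the normalization, so absolute depth is unknown. Of the values under 10 in a sample, 26.5% to 49.7% were near whole multiples of a common step (within 0.05 of the step; 10% by chance), so whole reads were not recovered and no count test was run. All columns matched 1 sample each by name, and 0 belonged to no mapped sample.

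Symbols, exons and sequences came from GENCODE release M39 on GRCm39. Genotypes were compared with limma 3.58.1 in R 4.3.3 (lmFit, eBayes with trend) on log2(normalized count + 1), which understates the change of low genes, and limited to genes with 10 or more normalized counts in 4 or more samples. Benjamini-Hochberg adjustment covered 13594 genes, with a threshold of 0.05 (called). Correlations between samples lay between 0.947 and 0.986, and no sample was treated as a repeat. Markers were lists of erythroid, hepatocyte, endothelial, neutrophil, megakaryocyte, monocyte and macrophage genes. All 10 genes, every called gene of the pathway lists, the most abundant gene of each marker list and the 5 genes most like *Xpr1* were named by rule. *Slc25a3*, *Isyna1*, *Adgre1*, *Timd4*, *C1qa*, *C1qc*, *Ptprc*, *Elane*, *Prtn3*, *Mpo*, *Gp1bb*, *Inpp5a* and the overlapping genes were picked after their values were seen. The genes, lists and tests were chosen with earlier results of these data known. Plots were made in Python 3.11.15 (matplotlib 3.10.9).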

Additional observations from a re-analysis of the deposited data

Results flagged for a closer look

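In 104 groups of 4 or 5 samples of 1 gene and genotype, the most extreme sample was set against the rest. It stood apart in 6, where 5.2 would by chance, since chance gives about 1 in 20. For *Slc20a2*, control 4 had 763.5 normalized counts against 627.2 to 642.3 in the other controls. Mrc1Cre Xpr1fl/fl sample 2 accounted for 4 of the cases: it had 2437.4 normalized counts of *Nudt4* against 2643 to 2688.2 in the other samples of its genotype, 5.5 of *Fgfr1* against 16.6 to 18.4, 1904.9 of *Cmpk2* against 1172 to 1325.9, and 376.9 of *Inpp5a* against 331.1 to 336.3. Control 3 also stood apart for *Inpp5a*, with 406.1 normalized counts against 327.7 to 337.4. The calls on *Slc20a2*, *Nudt4*, *Fgfr1* and *Cmpk2* held in all fits that omitted 1 sample. *Inpp5a*, an inositol phosphate phosphatase, was not called.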

How the results depend on the processing

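The date and the erythroid covariate moved the counts most. With the date as a term, 577 genes were called higher and 617 lower, against 2926 and 2939 without it; of the 10 genes 0 were higher and 1 lower, and of the 42 pathway genes 1 was higher and 2 lower. With the erythroid covariate the counts were 17 and 5 over all genes and 0 in either direction in each list. Scaling to the 75th percentile left 6 pathway genes higher. Over the fits that omitted 1 sample each, 2491 to 3050 genes were higher and 2324 to 3031 lower, 2 to 3 of the 10 genes were higher and 2 to 3 lower, and 9 to 12 pathway genes were higher and 10 to 13 lower. The cause of these shifts was not tested.

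Signs turned for *Slc20a1* (0.19 with the date, 0.31 with the erythroid covariate), *Slc25a3* (0.0136 with the date), *Isyna1* (−0.0129 after quantile normalization) and *Nudt3* (−0.0649 after scaling to the 75th percentile, −0.0624 after quantile normalization, −0.0813 with the date, −0.0712 with the erythroid covariate, and −0.0353 to 0.0898 over the fits that omitted 1 sample). With the erythroid covariate they also turned for *Ip6k2* (0.18), *Ppip5k2* (−0.26), *Bpnt2* (−0.0775), *Ppa1* (−0.0088) and *Phospho1* (0.37). The level of *Xpr1* per kb in controls was 333 with the mean length of protein-coding transcripts against 110.5. Other pseudocounts, filters, robust fitting and array weights turned no sign, and *Alpl* and *Pth1r* could not be fitted with the stricter filter.

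Same-numbered samples of the genotypes did not deviate together (correlations of −0.033, 0.147, −0.011 and −0.031), so the numbers do not pair them. With the replicate number as a block, 3146 genes were higher and 3080 lower, and *Minpp1* (adjusted p = 0.0584, limma) and *Slc5a3* (0.05) were no longer called, while *Xpr1* stood at −0.74. With 5 against 4 samples and unknown depth, differences within the confidence intervals given for *Slc20a1*, *Ip6k2* and *Nudt3* cannot be resolved.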
